A study of Mus musculus with 6 samples.

Results

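The genes described here are 8 mouse genes of mitotic kinase signalling, taken from 21887 protein-coding genes. They are Aurka, Aurkb and Plk1, which encode kinases, Tpx2 and Bora, which encode kinase activators, Birc5, which encodes survivin, and Sgo1 and Sgo2a, which encode shugoshins. They were chosen by name for their role in mitosis, and Incenp and Cdca8 were left out. Every anti-FLAG ChIP-Seq peak inside one of these genes or within 100 kb of it was used, which gave 28 of 31600 peaks in replicate 1, 14 of 12856 in replicate 2 and 23 of 24822 in replicate 3.

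The peaks come from mouse embryonic fibroblasts (MEFs) of C57BL/6 embryos. In the Onecut3-OE cells, doxycycline at 100 ng/mL switched on FLAG-tagged Onecut3, a CUT homeobox transcription factor, from a retroviral Tet-One vector, so the factor bound here was overexpressed and not at the level of a normal tissue. The control cells received no doxycycline. The series holds 3 FLAG libraries of Onecut3-OE cells, which have the peak lists used here, and 1 control FLAG, 1 IgG and 1 input library, which were not analysed here. FLAG signal that does not depend on Onecut3 is therefore not removed. By the peak names, the input was the control when the peaks were called, so each fold rests on it. The lists give no read numbers, so depth is unknown, and the precision of a fold is limited by fragment counts that could be recovered in replicates 1 and 3 alone. Only 1 condition has peak lists, so conditions were not compared, and whether the replicates were separate cultures is not stated, so agreement between them may be technical. No expression values were used, so the fibroblast label was not checked by markers. Values are therefore given as descriptions beside the same values over all protein-coding genes.

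Aurora A and Aurora B are related serine/threonine kinases with different places in mitosis. Aurora A acts at centrosomes and on spindle microtubules, where TPX2 binds and activates it, and with Bora it activates PLK1 before mitotic entry. Aurora B acts at centromeres and later at the midzone of the spindle as the kinase of the chromosomal passenger complex, which also holds survivin. Shugoshins protect centromeric cohesin and help to bring the passenger complex to inner centromeres. Expression of these genes mostly peaks around G2 and mitosis, so their products rise and fall with the cell cycle.

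Onecut3 FLAG peaks were found in all 3 replicates inside Sgo2a and across the end of Aurka, with summits just outside the Aurka gene span, in the neighbourhood of Aurkb, Birc5 and Tpx2, and nowhere within 100 kb of Plk1, Bora or Sgo1. Overlapping peaks (at least 1 bp) were joined into regions, which are called shared where all 3 replicates contributed a peak. Of 50844 regions in all, 44 lay within 100 kb of the 8 genes, of which 9 were shared, 3 were in 2 replicates and 32 were in 1 replicate. A shared region lay inside or overlapped 2 of 8 genes, against 9.53% of all protein-coding genes. The count was also 2 of 8 for a shared region inside or within 3 kb (11.5% of all protein-coding genes), and 5 of 8 for one within 100 kb (40.6%). The median gap to the nearest shared region was 34.6 kb for the 8 genes and 152 kb for all protein-coding genes. The 8 genes had a median of 5.5 other protein-coding genes within 100 kb, against 4 for all, so they lie in slightly denser surroundings, and the part of this in the shorter gap was not tested.

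**Figure D1:**
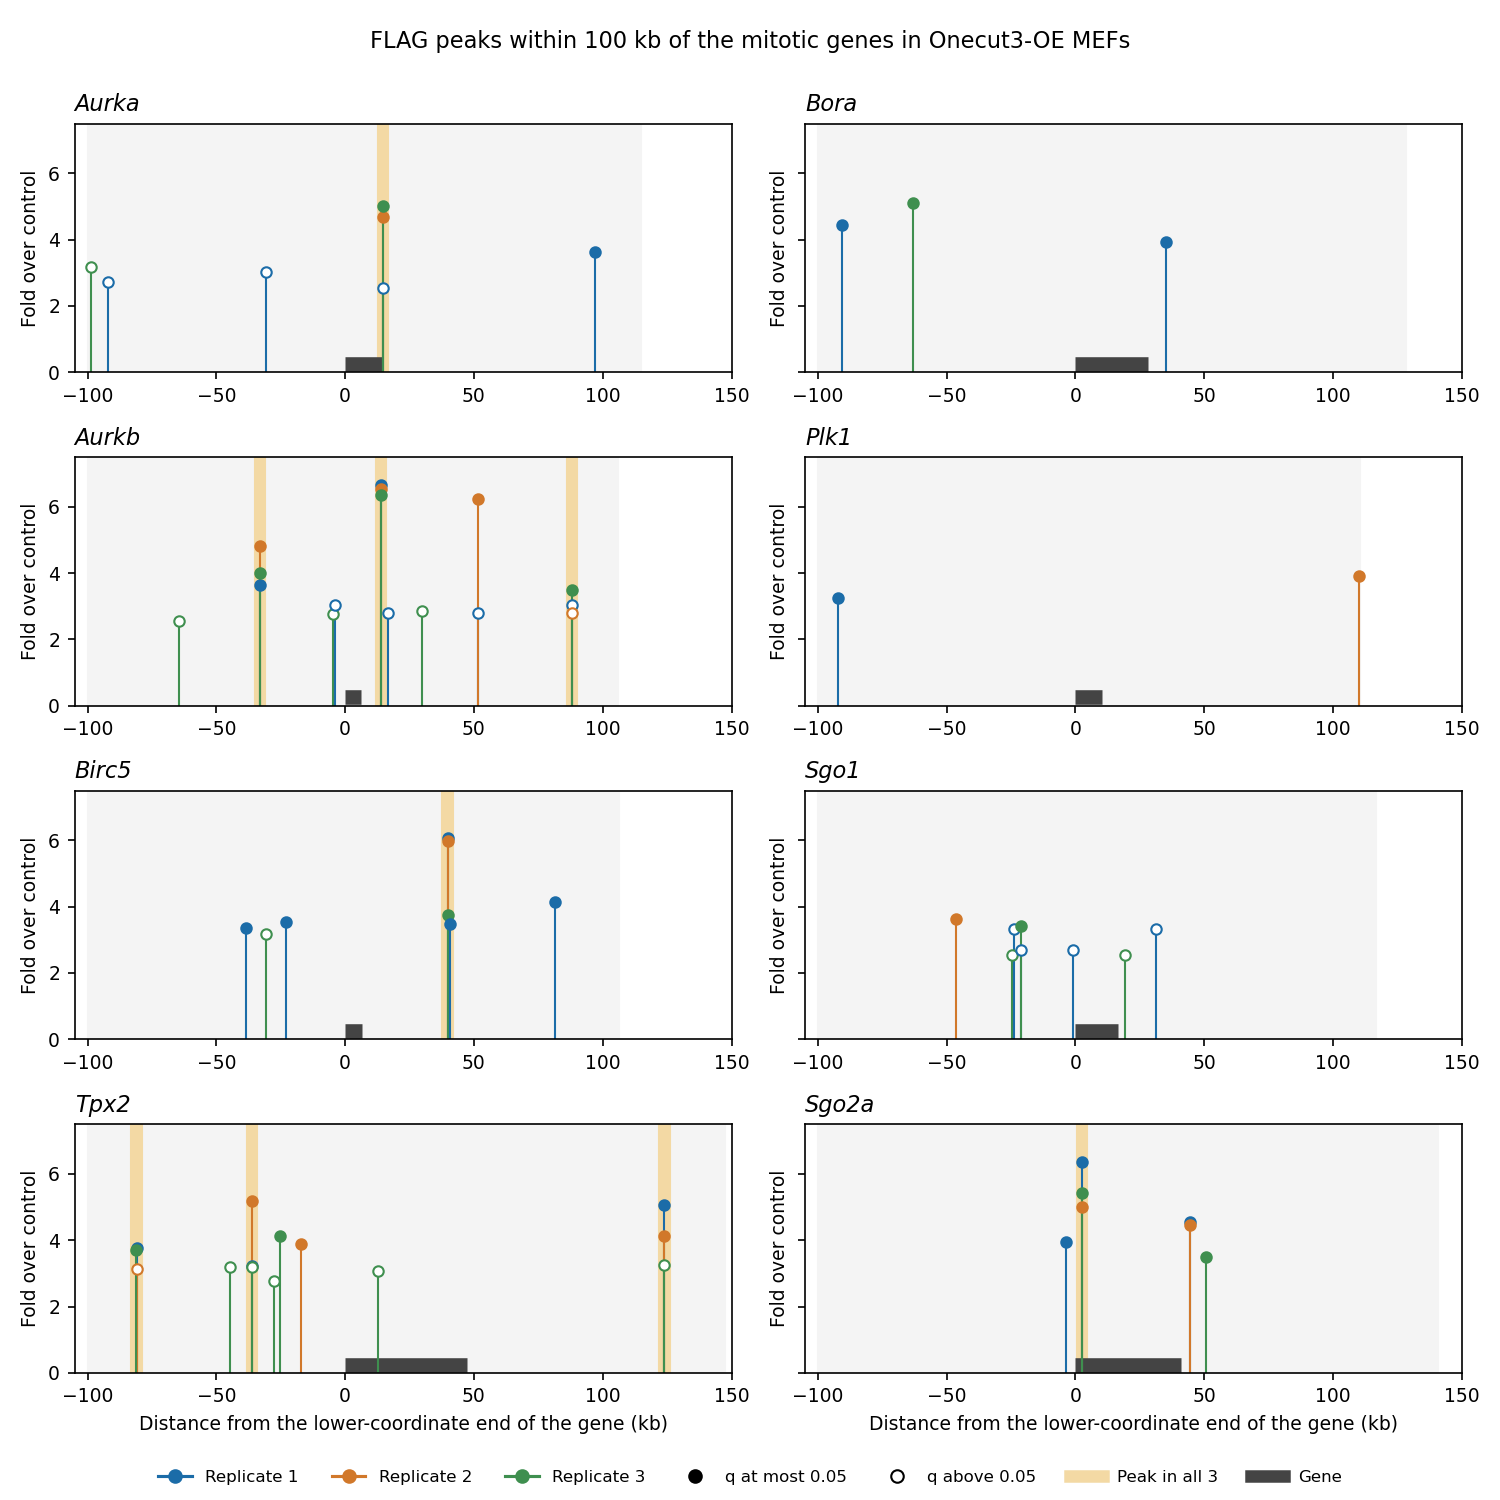
FLAG peaks within 100 kb of the 8 genes. The x axis is the distance in kb from the lower-coordinate end of each gene, and the y axis is fold over the input control. Lines mark summits, filled circles are peaks whose q is 0.05 or less, shaded bands mark regions in all 3 replicates, and no band is seen at Bora, Plk1 or Sgo1.

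Aurka, the gene of Aurora A, had a shared region at its start, and the same region covered the start of its neighbour Cstf1, which encodes a subunit of the cleavage stimulation factor of pre-mRNA processing. The region is chr2:172370603-172371135 on GRCm38, and Aurka spans chr2:172356190-172370886 on the minus strand. Replicates 1, 2 and 3 had folds of 2.53, 4.67 and 5.02, where a fold is the FLAG signal over the input control at the summit. Replicates 2 and 3 were thus high and replicate 1 was low. Among all peaks of their own list these folds were at percentiles 15.6, 80.5 and 93.6, and q was 0.261, 3.81e-08 and 3.36e-08. The q value is the p-value of the peak caller adjusted for multiple testing. The region is lost as a shared region when peaks are limited to q of at most 0.05, because of replicate 1. At the summit, replicate 1 had 13 fragments over an expected background of 4.54, and replicate 3 had 25 over 4.18. These backgrounds are the highest at the shared regions of the 8 genes, where the others lay between 2.14 and 2.73.

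The summits at Aurka lay nearer to the start site of Cstf1 than to that of Aurka. From the Aurka start site at 172370570, they were 362, 389 and 409 bp upstream in replicates 1, 2 and 3. From the Cstf1 start site at 172371003, on the plus strand, they were 71, 44 and 24 bp upstream. The start sites of this divergent pair are 433 bp apart. The summits also lay 46, 73 and 93 bp beyond the end of the Aurka gene span, so the region overlaps the gene by its flank, and a FLAG peak here cannot be assigned to one gene of the pair. The upstream 250 bases of both genes are shown, since the region covers 218 of them at Aurka and 250 at Cstf1. This cover came from the weak peak of replicate 1, which began at 172370603. The peaks of replicates 2 and 3 began at 172370807 and 172370829. They covered part of the Cstf1 bases, and few (replicate 2) or none (replicate 3) of the Aurka bases. Capitals mark the hexamer ATCGAT, the pentamer CCAAT and its reverse complement ATTGG. The sequences are from RefSeq (GRCm38.p6), written 5′ to 3′ on the strand of each gene, chr2:172370571-172370820 (minus) for Aurka and chr2:172370753-172371002 (plus) for Cstf1.
Aurka: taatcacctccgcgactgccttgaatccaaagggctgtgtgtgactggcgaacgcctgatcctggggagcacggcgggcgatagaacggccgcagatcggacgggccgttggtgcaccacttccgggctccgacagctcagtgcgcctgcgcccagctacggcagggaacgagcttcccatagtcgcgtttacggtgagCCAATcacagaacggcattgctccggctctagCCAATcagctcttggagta
Cstf1: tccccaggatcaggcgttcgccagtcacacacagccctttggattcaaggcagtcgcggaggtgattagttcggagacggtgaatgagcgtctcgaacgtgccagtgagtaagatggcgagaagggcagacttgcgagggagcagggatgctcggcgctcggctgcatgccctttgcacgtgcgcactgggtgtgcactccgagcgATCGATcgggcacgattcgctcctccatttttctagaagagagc

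ATCGAT is a core in the sites of CUT homeobox factors such as those of the Onecut family, and it stood at or near the summits of the region at Aurka. It was at chr2:172370959-172370964, 27 bp from the summit in replicate 1, under the summit in replicate 2 and 15 bp from it in replicate 3. It began 44 bp upstream of the Cstf1 start site and was not in the Aurka window itself, which ends short of it. Of 32851 promoter windows in the RefSeq table, each 250 bases before a start site and 50 after it, 304 held ATCGAT on either strand (0.925%). The Aurka window held CCAAT at 2 places, 19 and 51 bp upstream of its start, and 37.4% of all windows held CCAAT or ATTGG. A second core of Onecut sites, ATTGAT or its complement ATCAAT, was in 7.54% of all windows and in neither of these. The matches are descriptions of the letters, and binding to them was not tested. Bases were read only in promoter windows, so the shared regions near Birc5 and Tpx2, inside Sgo2a and at the other places near Aurkb than Borcs6 were not searched.

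Aurka had 4 further regions within 100 kb, each in 1 replicate. On the side towards Mc3r, a melanocortin receptor gene, were peaks of replicate 3 at 98.5 kb (fold 3.18) and of replicate 1 at 91.9 kb (2.73) and 30.6 kb (3.03), the last being nearer to Fam210b, a mitochondrial protein gene. On the other side, 82.1 kb away, a peak of replicate 1 with a fold of 3.63 overlapped Rtf2 and Gcnt7. All 4 were nearer to other genes than to Aurka. Among all protein-coding genes, 90.5% had their nearest shared region farther away than Aurka, for which it overlapped the gene. On chromosome 2 alone it was 88.6%.

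Aurkb, the gene of Aurora B, had no peak inside it in any replicate, but it had the strongest shared region of the 8 genes in its neighbourhood. Aurkb spans chr11:69045624-69051664, and the region chr11:69059452-69059829 lay 7.79 kb from it. The folds were 6.66 in replicate 1, 6.53 in replicate 2 and 6.37 in replicate 3, all high in their lists (percentiles 99.1, 97.0 and 98.5, mean 98.2 ± 1.08, SD, n = 3). The replicates were close to each other, and q was at most 1.46e-08 in each. The pileup was 21 fragments over a background of 2.30 in replicate 1 and 19 over 2.14 in replicate 3. The region is not nearest to Aurkb. It overlapped the start of Borcs6, which encodes a subunit of the BORC complex that positions lysosomes, with summits 143, 110 and 162 bp upstream of the Borcs6 start site in replicates 1, 2 and 3. With only peaks of -log10 q of at least 5, it was the single shared region left within 100 kb of any of the 8 genes.

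The upstream bases of Borcs6, chr11:69059525-69059774 on the plus strand (RefSeq, GRCm38.p6), are shown because the region covers all 250 of them. Capitals mark CCAAT.
Borcs6: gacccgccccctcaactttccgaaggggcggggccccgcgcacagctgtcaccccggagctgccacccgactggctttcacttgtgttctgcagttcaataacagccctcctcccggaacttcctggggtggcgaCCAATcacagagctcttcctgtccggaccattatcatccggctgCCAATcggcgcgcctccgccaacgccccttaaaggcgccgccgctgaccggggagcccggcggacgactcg

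This window held CCAAT at 2 places and neither ATCGAT nor ATTGAT. The first CCAAT was 28, 1 and 47 bp from the summit in replicates 1, 2 and 3, and the second was 72, 39 and 91 bp away.

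Of the other 8 regions around Aurkb, 2 were shared and 1 was in 2 replicates. A shared region 32.9 kb away, chr11:69012384-69012740, had folds of 3.65, 4.83 and 3.99 in replicates 1, 2 and 3, with q of 0.0112, 9.25e-06 and 0.00301. It lay 2.45 kb from Ctc1, a telomere maintenance gene, and its percentiles were close together (81.0 ± 3.45, SD, n = 3). A shared region 81.7 kb away, inside the epidermal lipoxygenase gene Aloxe3, had the lowest mean percentile of the 9 (39.5 ± 27.8, SD, n = 3). Its folds were 3.03, 2.79 and 3.50 in replicates 1, 2 and 3, with q of 0.197, 0.966 and 0.043. Its summits were spread over 208 bp. The region 45.2 kb away, inside the circadian gene Per1, had a fold of 6.22 in replicate 2 (q = 1.74e-09), 2.81 in replicate 1 (q = 0.309) and no peak in replicate 3. Nearest to the gene itself were single peaks 3.73 kb away in replicate 1 (fold 3.03, q = 0.197) and 4.44 kb away in replicate 3 (fold 2.76, q = 0.232), with no other protein-coding gene as near. These 2 peaks did not overlap each other. For 86.5% of all protein-coding genes, and 85.9% of those on chromosome 11, the nearest shared region was farther away than for Aurkb.

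Plk1, the polo-like kinase that Aurora A and Bora activate, was the barest of the 8 genes. Plk1 spans chr7:122159435-122169884 on the plus strand. It had 2 regions within 100 kb, each in 1 replicate and each close to the limit of the window. The peak of replicate 1, 92.2 kb away with a fold of 3.24 (q = 0.0201), overlapped the divergent genes Ears2 and Ubfd1, and the peak of replicate 2, 99.5 kb away with a fold of 3.90 (q = 0.00939), was nearer to Prkcb, a protein kinase C gene. Replicate 3 had none, and its nearest peak lay 775 kb away. The nearest shared region was 951 kb from Plk1, and only 11.4% of all protein-coding genes had theirs farther away. Chromosome 7 was poor in shared regions, since 21.2% of its genes had one within 100 kb, and among all genes of the chromosome 29.2% had their nearest one farther away than Plk1.

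Tpx2, the activator of Aurora A, had 3 shared regions within 100 kb, and all of them overlapped other genes. Tpx2 spans chr2:152847964-152895321. The nearest, 36.1 kb away at chr2:152811561-152811892, had folds of 3.22, 5.17 and 3.18 in replicates 1, 2 and 3, with replicate 2 high and the others near the middle of their lists (percentiles 55.1, 88.9 and 46.3). It lay inside Bcl2l1, the gene of the survival factor Bcl-xL, as did a shared region 80.7 kb away with folds of 3.76, 3.14 and 3.70. On the other side, 76.4 kb away, a shared region inside the tubulin-modifying enzyme gene Ttll9 had folds of 5.06, 4.13 and 3.26, and its summits fell within 3 bp of each other. Inside Tpx2 itself there was 1 peak, in replicate 3, with a fold of 3.07 (q = 0.154) over 9 fragments. Bcl2l1 also held 4 single peaks, so 6 of the 8 regions around Tpx2 overlapped Bcl2l1. At a q limit of 0.05, none of the 3 regions was shared.

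Bora, the other activator, had 3 regions, each in 1 replicate. Bora spans chr14:99046377-99074540. The nearest, 6.74 kb away with a fold of 3.94 in replicate 1 (q = 0.00517), overlapped Dis3, which encodes a nuclease of the RNA exosome. A peak of replicate 3 with a fold of 5.09 (q = 2.42e-05) lay 63.0 kb away and a peak of replicate 1 with a fold of 4.44 (q = 3.03e-04) lay 90.6 kb away, both nearer to Mzt1, a gamma-tubulin complex gene. The peak at 63.0 kb had the highest fold of all 32 single peaks near the 8 genes, at percentile 94.4 of its list. Replicate 2 had no peak within 100 kb, and the nearest shared region was 118 kb away.

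Birc5, the gene of survivin, had 1 shared region, 33.1 kb away on the side of its 3′ end. Birc5 spans chr11:117849237-117855743 on the plus strand, and the region is chr11:117888819-117889258. The folds were 6.06 in replicate 1, 5.99 in replicate 2 and 3.74 in replicate 3, so replicates 1 and 2 were high (percentiles 98.4 and 95.0) and replicate 3 was lower (71.4). The q values were 3.89e-08, 2.29e-08 and 0.0123, and the pileup was 19 fragments in replicate 1 and 11 in replicate 3. The nearest protein-coding gene, Tha1, a threonine aldolase gene, was 15.3 kb from the region, which thus overlapped none. The 5 other regions were single peaks with folds from 3.18 to 4.14. One of them, in replicate 1 at 22.8 kb, met the start of Tk1, the thymidine kinase gene of S phase, and overlapped Afmid. For 77.4% of all protein-coding genes the nearest shared region was farther away than for Birc5.

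Of the shugoshin genes, Sgo2a had the clearest region inside a gene among the 8. Sgo2a spans chr1:57985340-58026277 on the plus strand, and the region chr1:57987606-57988128 lay inside it. The folds were 6.36, 5.01 and 5.41 in replicates 1, 2 and 3, with q of 5.63e-09, 2.01e-05 and 4.18e-06. All 3 were high in their lists (percentiles 98.7, 86.8 and 96.0, mean 93.9 ± 6.23, SD, n = 3). The summits were 2568, 2593 and 2595 bp downstream of the first start site of the gene, within 27 bp of each other. The pileup was 20 fragments over 2.30 in replicate 1 and 16 over 2.14 in replicate 3. It was the only shared region of the 9 with no other protein-coding gene overlapping it or nearer to it. It stayed shared with q of at most 0.05 and with a fold of at least 5, but not with -log10 q of at least 5, since replicate 2 then had no peak. The annotation used gives no exons, so its place in an intron or exon is not stated.

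A region in 2 replicates lay 3.31 kb beyond the 3′ end of Sgo2a, at the start of Aox1, an aldehyde oxidase gene. The folds were 4.54 in replicate 1 (q = 2.57e-04) and 4.46 in replicate 2 (q = 5.02e-04), with summits 3 bp apart and 223 and 220 bp upstream of the Aox1 start site, and replicate 3 had no peak there. The upstream bases of Aox1, chr1:58029719-58029968 on the plus strand (RefSeq, GRCm38.p6), are shown because they hold ATCGAT, as the window of Cstf1 does. Capitals mark ATCGAT and ATTGG, and the region covers the first 139 bases.
Aox1: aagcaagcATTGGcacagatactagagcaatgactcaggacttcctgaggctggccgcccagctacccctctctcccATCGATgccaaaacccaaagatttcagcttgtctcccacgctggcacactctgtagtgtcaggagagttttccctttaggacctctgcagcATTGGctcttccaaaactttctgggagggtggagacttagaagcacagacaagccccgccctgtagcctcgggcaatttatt

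Here ATCGAT was 50 and 47 bp from the summits of replicates 1 and 2. Aox1 was shown for this hexamer. Motifs are not given for the windows of Tk1, Bcl2l1, Ears2 and Ubfd1, which single peaks met. Other peaks around Sgo2a were 1 in replicate 1, 3.45 kb before its start (fold 3.94, q = 0.00517), and 1 in replicate 3, 9.46 kb past its end inside Aox1 (fold 3.50, q = 0.0430).

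**Figure D2:**
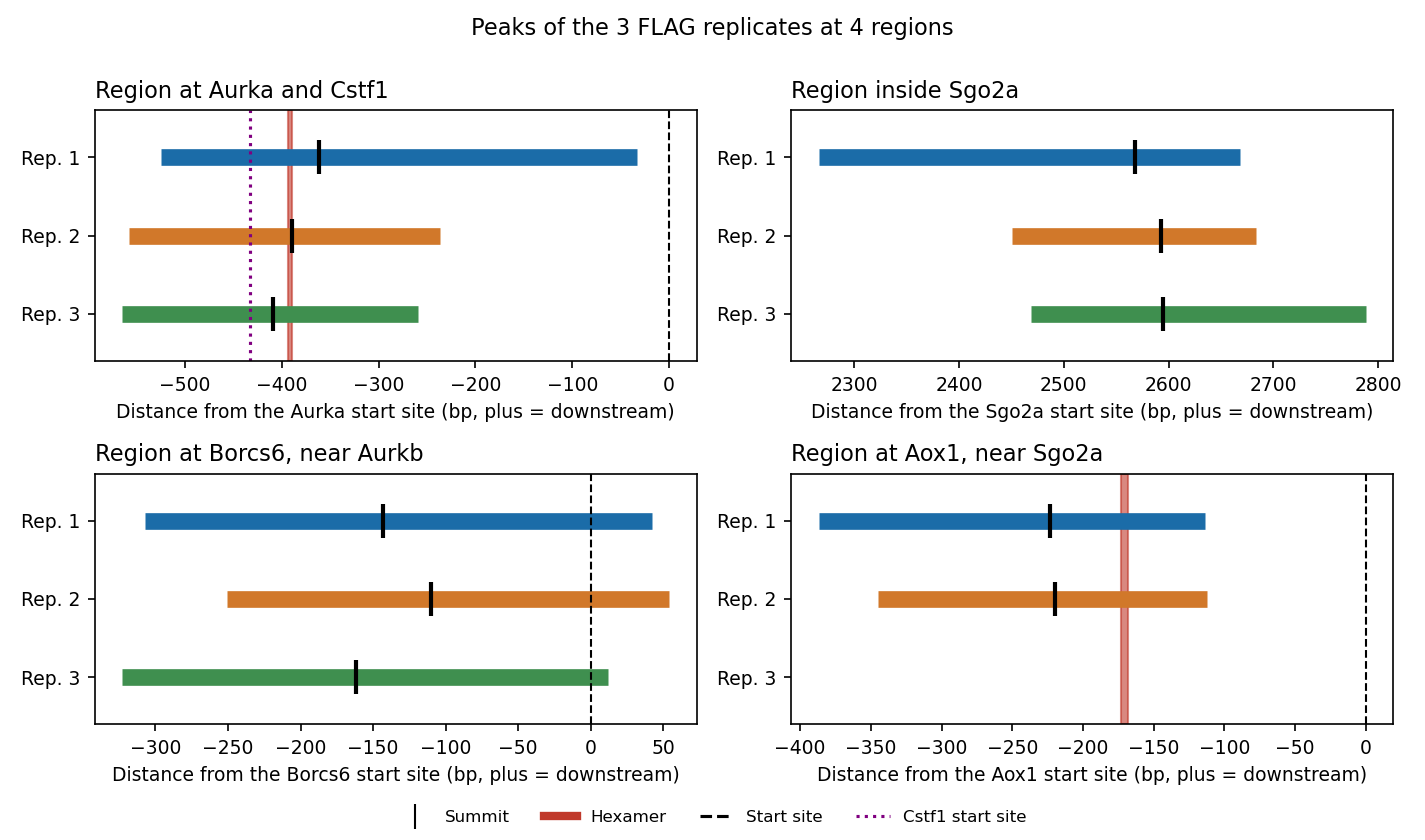
Extent and summit of the peaks of replicates 1 to 3 at the regions at Aurka and Cstf1, inside Sgo2a, at Borcs6 near Aurkb and at Aox1 near Sgo2a, with the distance in bp from the start site named under each panel on the x axis. Bars are peaks, black ticks are summits and the red band is the hexamer ATCGAT, which lies 27, 0 and 15 bp from the 3 summits at Aurka and Cstf1 and was not searched for in the region inside Sgo2a.

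Sgo1, the mitotic shugoshin of cohesin protection, had 7 regions within 100 kb and none of them was shared. Sgo1 spans chr17:53674786-53691331 on the minus strand. The region in 2 replicates, 20.8 kb away at chr17:53653659-53653964, had a fold of 2.68 in replicate 1 (q = 0.481) and 3.42 in replicate 3 (q = 0.0394) and lay inside Kat2b, a histone acetyltransferase gene. Without replicate 2 it counted as shared, and Sgo1 became the sixth gene with a shared region within 100 kb. The peaks nearest to Sgo1 were weak. They were 0.997 kb from the 3′ end in replicate 1 (fold 2.68, q = 0.481), slightly nearer to Kat2b, and 2.78 kb from the other end in replicate 3 (fold 2.55, q = 0.943), on 9 and 7 fragments. The nearest region in all 3 replicates was 145 kb away. With 1 other protein-coding gene within 100 kb, Sgo1 lies in sparser surroundings than the other 7 genes, for which the number was 3 to 11.

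**Figure D3:**
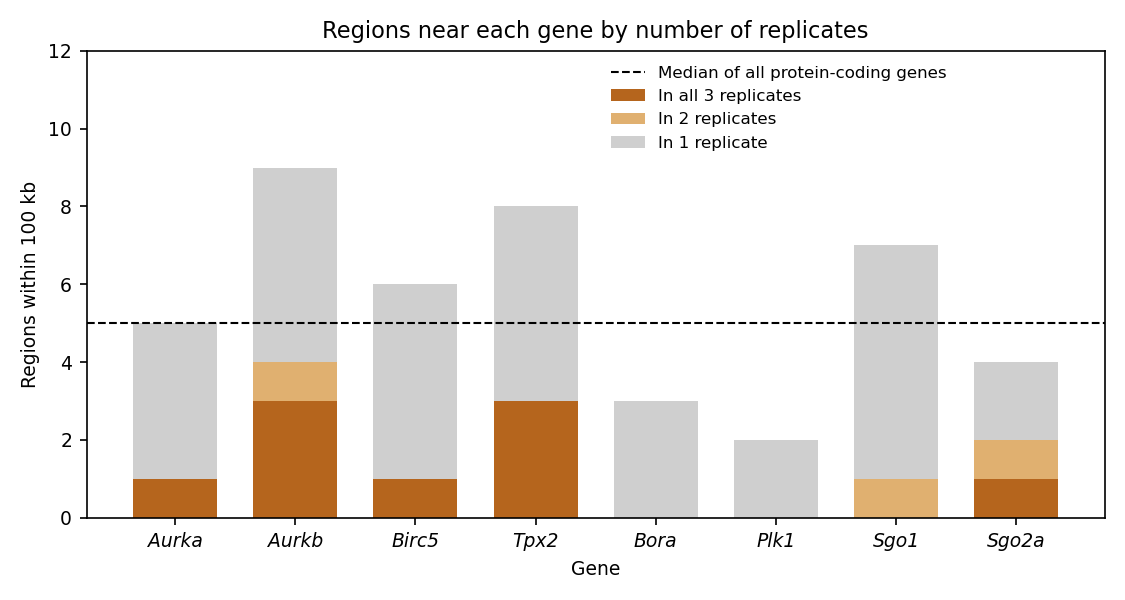
Number of regions within 100 kb of each gene (y axis), split by whether 1, 2 or all 3 replicates had a peak, with the median of 5 regions over all protein-coding genes as a dashed line. Aurkb has 9 regions and Plk1 has 2, and Bora, Plk1 and Sgo1 have none in all 3 replicates.

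A gene with many regions did not always have shared ones. The number of regions in any replicate was 2 at Plk1, 3 at Bora, 4 at Sgo2a, 5 at Aurka, 6 at Birc5, 7 at Sgo1, 8 at Tpx2 and 9 at Aurkb, with a median of 5.5 against 5 for all protein-coding genes. Of all such genes, 17.7% had fewer regions than Plk1 and 13.3% had more than Aurkb. Sgo1 had 7 regions and none shared, whereas Sgo2a had 4 and 1 shared. Of the regions near the 8 genes 20.5% were shared, against 10.1% of all 50844 regions, and 72.7% were in 1 replicate, against 74.0%. The former lie within 100 kb of a gene by rule, whereas all regions were counted wherever they lay, so the sets are unlike. The 9 shared regions belong to 5 neighbourhoods, so they are not independent of each other.

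Shared regions rested on more fragments than single peaks and were wider, with overlap between the groups. The 27 peaks of the 9 shared regions had folds from 2.53 to 6.66, and 20 of them had q of at most 0.05. The 32 single peaks had folds from 2.55 to 5.09, and 15 had such a q. They were 16, 3 and 13 peaks of replicates 1, 2 and 3, so the pooled counts mix lists with unlike shares. Over the whole lists the share of peaks with such a q was 33.6%, 71.0% and 47.7% in replicates 1, 2 and 3, and among all peaks near the 8 genes it was 57.1%, 85.7% and 47.8%. In replicates 1 and 3 the pileup was 9 to 25 fragments in shared regions and 7 to 16 in single peaks. Median width was 450 bp for shared regions, which are unions of 3 peaks, and 223.5 bp for single ones. Of the 9 shared regions, 4 had q of at most 0.05 in every replicate. They were the regions at Borcs6 and near Ctc1 in the neighbourhood of Aurkb, the region past Birc5 and the region inside Sgo2a.

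**Figure D4:**
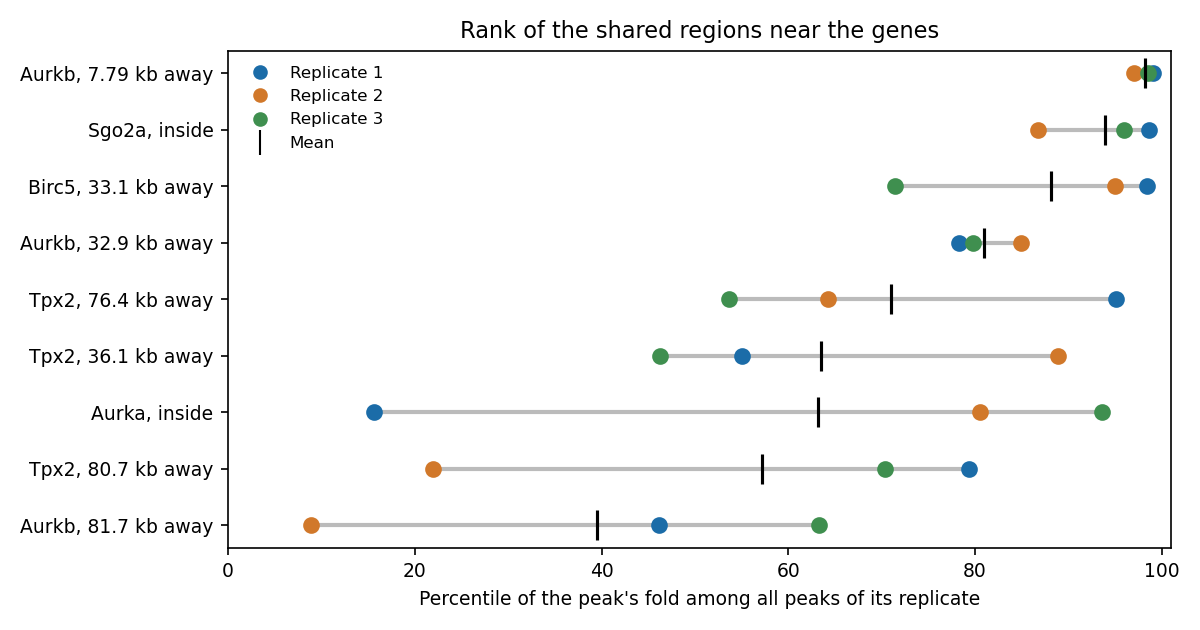
Rank of the 9 shared regions near the genes, as the percentile of the fold among all peaks of the same replicate (x axis), with 1 row per region and 1 point per replicate. The region 7.79 kb from Aurkb and the one inside Sgo2a have all points at percentile 86.8 or above, and the region at Aurka runs from 15.6 to 93.6.

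Most regions were nearer to another gene than to the mitotic gene. Of the 44 regions, 37 had another protein-coding gene as near or nearer, and of the 9 shared regions 8 did, 6 of which overlapped such a gene. The 7 regions without one were 2 near Aurkb, 1 in Tpx2, 2 near Sgo1 and 2 at Sgo2a. Only the region inside Sgo2a was shared among these. A promoter window was listed for 5 of the 8 genes, and a shared region met it at Aurka alone, against 1.87% of 17492 protein-coding genes with a window. The region met the Aurka window, which ends at 172370820, through replicates 1 and 2, with the peak of replicate 2 beginning at 172370807. The peak of replicate 3 began at 172370829, outside the window. The windows of Birc5, Plk1, Sgo1 and Sgo2a held neither ATCGAT nor ATTGAT, and those of Plk1, Sgo1 and Sgo2a held 1 CCAAT or ATTGG each.

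Among 43 other genes of the same pathways, 7 had a shared region inside or within 3 kb, against 11.5% of all protein-coding genes. The share was 16.3%, and 25 of 43 had a shared region within 100 kb (58.1%, against 40.6%). Of 10 related kinases only Mastl, the Greatwall kinase that restrains the phosphatase PP2A in mitosis, had one within 3 kb, with folds of 2.68, 3.38 and 3.22 in replicates 1, 2 and 3. These were at percentiles 19.0, 34.3 and 53.0 of their lists, with q of 0.481, 0.0398 and 0.0353. Plk2, Plk3, Plk4, Plk5 and Aurkc had none within 3 kb. Of 12 spindle and centrosome partners, Nedd9 and Tacc1 had one within 3 kb. At Nedd9, a scaffold that binds Aurora A, the folds were 5.15, 3.35 and 3.18 (q = 9.38e-06, 0.122 and 0.142). At Tacc1, a relative of the Aurora A partner Tacc3, they were 6.98, 11.1 and 5.70, all at percentile 96.8 or above.

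Of 3 genes that control the turnover of mitotic proteins, Fzr1 had a shared region within 3 kb. Fzr1 encodes Cdh1, the activator of the anaphase-promoting complex under which Aurora A and PLK1 are degraded. Its region, chr10:81378655-81379021, lay 0.285 kb from the gene, with folds of 7.79, 9.34 and 7.80 and percentiles of 99.7, 99.8 and 99.6 in replicates 1, 2 and 3. None of 3 central spindle genes had a shared region within 3 kb, and 2 of them had one within 100 kb. Among 11 genes of cohesin and its protection, Smc3 and Pds5a had one inside. The folds were 3.36, 5.90 and 3.24 at Smc3, a core cohesin subunit (q = 0.0407, 1.47e-08 and 0.084). They were 2.73, 3.14 and 5.13 at Pds5a, a cohesin regulator (q = 0.521, 0.122 and 5.17e-06). Among 4 relatives of survivin, Birc6 had one inside, with folds of 5.45, 3.87 and 4.78. Mastl, Nedd9, Tacc1, Smc3, Pds5a and Birc6 all had the region inside the gene. Long genes meet more regions, and gene length was not taken into account. Whether other genes lay as near to the regions of these pathway genes is not given here.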

How the data were processed

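Anti-FLAG ChIP-Seq was analysed for 3 Onecut3-OE replicates, grouped by their labels. One background genotype that all libraries have in common is not reported here. The submitters' processing notes list deepTools 3.3.2, MACS2 2.1.0, Bowtie2 2.2.6 and the GRCm38 build without saying what each did, and the methods name MACS for peaks. The authors deposited 1 list per replicate, with the input as control by the peak names. Each deposited peak has a fold (a ratio of pileup to background, 1 added to each), a score, which is 10 times the −log10 p-value, and both p and q on the −log10 scale. Sources used here say nothing of read filters. The lists reach down to a -log10 p of 2.00, 2.01 and 2.02. A fold depends on depth and local background, so it was ranked within its list.

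Here, peaks were joined at an overlap of at least 1 bp and gaps were taken to RefSeq gene spans of GRCm38.p6. Pileup and background were solved from fold and p in replicates 1 and 3 (tolerance 0.001 in -log10 p, met by all 51 peaks near the genes). Motifs were searched on both strands. The genes, the pathway list, the motifs and the alternatives were chosen with earlier results of these data known. Besides the 8 genes, the text names the protein-coding gene nearest to a region and pathway genes with a shared region within 3 kb; other details were named after their values were seen. Counts were not tested. Joining of peaks, gaps to genes and recovery of pileups were tested on simulated data, the pileups with values made by the same formula. The other steps were not. Alternatives were q of at most 0.05, -log10 q of at least 5, a fold of at least 5, overlap of 50% of both peaks, summits within 100 bp, leaving out each replicate, and other windows. Analyses ran in Python 3.11.15 (pandas 2.3.3, numpy 2.4.6, matplotlib 3.10.9, scipy 1.17.1).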

Additional observations from a re-analysis of the deposited data

How the results depend on the processing

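Stricter peak limits moved the counts most. With q of at most 0.05, 1 gene of the 8 had a shared region inside or within 3 kb, 3 had one within 100 kb, and 27 regions were left, 4 of them shared, with 4 pathway genes within 3 kb of a shared region. With -log10 q of at least 5, 0 and 1 genes had one, with 8 regions, 1 of them shared, and 2 pathway genes. With a fold of at least 5, 1 and 2 genes had one, with 8 regions, 2 of them shared, and 2 pathway genes. Regions in any replicate numbered 28 to 41 with 1 replicate left out, with 28 without replicate 1. Of 54 counts under an alternative, 35 stayed within 1.5 times the main value and 19 moved. The counts of genes with a shared region inside or within 3 kb stayed at 2 with each replicate left out, with an overlap of 50% of both peaks and with summits within 100 bp, and the second also when measured from start sites, which were listed for 5 genes. With 1 replicate left out, shared meant a peak in both remaining lists, which is a looser rule, so these counts could hardly fall. Without replicate 2 the nearest shared region of Sgo1 moved from 145 to 20.8 kb, and without replicate 3 that of Plk1 from 951 to 131 kb. Of 64 such distances 45 stayed within 1 SD over replicates, most of them unchanged, 17 became longer and 2 shorter. The distance to a shared region has no value per replicate, so this SD does not measure its spread. No paired analysis was possible because only 1 condition has peak lists. The depth of the libraries is unknown, so a gene without a shared region may have binding that was not detectable here.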

Other observations

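The hexamer that stood at or near the summits at Aurka and Cstf1 was also counted in the promoter windows of all genes. ATCGAT was in 49 of 432 windows that a shared region met (11.3%), in 13 of 699 windows met by single-replicate regions alone (1.86%) and in 0.925% of all 32851 windows. For ATTGAT or ATCAAT the shares were 27.1%, 14.3% and 7.54%, and for CCAAT or ATTGG, which is not a Onecut core, they were 62.7%, 54.5% and 37.4%. Windows of divergent genes and of several start sites of a gene share bases, so these are shares of windows and not of independent sites. Base composition and CpG content of the windows were not compared, and no test was made.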
